A study of Trichoderma cf. simile with 24 samples.

Results

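Transcript levels in Trichoderma cf. simile WF8, a filamentous fungus whose strain was isolated from decaying wood by a coal mine, were compared between mycelium given 9,10-dibutoxyanthracene and mycelium given 4-phenoxybenzoic acid, 3 days after addition. The comparison rested on 6 of the 24 libraries of the study, 3 flasks with each compound, and took in 10842 tested loci of 13298 listed. Both compounds are small aromatic ethers used as models of lignite, the brown coal; the former carries butoxy groups on an anthracene, and the latter is a diaryl ether with a carboxylic acid. 9,10-Dibutoxyanthracene was used at 5 mg/L and 4-phenoxybenzoic acid at 10 mg/L. Each came from a stock of 0.2 g/L in dichloromethane, so that the stock made up 2.5% and 5% of the culture volume, and the effects of compound, dose and solvent volume cannot be told apart in these libraries. Cultures of 100 mL in 250 mL flasks had grown for 60 h in maltose and peptone broth at 29 °C and 180 rpm, and additions of copper, veratryl alcohol and manganese are listed for the treatment. The sources used here do not say whether the control flasks, which had no model compound, received dichloromethane. The same compounds at day 1, the controls at days 1 and 3 and cultures with 200 mg/L phenetole, a simple alkyl aryl ether, at day 3 served as references, with 3 flasks in each group. Phenetole cultures of day 1, also at 200 mg/L and with 3 flasks, entered the shared fit and are shown where all 24 libraries are.

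Filamentous fungi attack aromatic ethers with secreted oxidases and peroxidases and, inside the cell, with cytochrome P450 monooxygenases, conjugating enzymes and ring-cleaving dioxygenases, and they export toxic aromatics through membrane transporters. Genes for such steps often lie side by side in fungal genomes and can be expressed together. The files pair no gene ID with a name, a product or a sequence, and no annotation was used. None of these families, nor the markers of conidiation, could therefore be scored, and loci are given by ID and recovered length.

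The 6 libraries held 18033101 to 19842379 counts, and 11412 to 11622 loci had a count in each. Across tested loci, log2 CPM (counts per library size, scaled by TMM) correlated at 0.976 to 0.982 among the 9,10-dibutoxyanthracene flasks, at 0.958 to 0.972 among the 4-phenoxybenzoic acid flasks, and at 0.904 to 0.966 between the groups. Flask 3 of 4-phenoxybenzoic acid stood nearer to the other compound than its group mates did. Its correlations with the 9,10-dibutoxyanthracene flasks were 0.947 to 0.966, against 0.905 to 0.925 for flask 1 and 0.904 to 0.928 for flask 2. With its own group mates flask 3 correlated at 0.958 and 0.959, so its highest correlation was with a flask of the other compound. The TMM factors were 0.815 to 0.99 with 9,10-dibutoxyanthracene and 1.26 to 1.3 with 4-phenoxybenzoic acid and so did not overlap; the part that this difference in composition plays in the results was not tested beyond the scalings given here.

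At day 3 many transcript levels differed between mycelium given 9,10-dibutoxyanthracene and mycelium given 4-phenoxybenzoic acid. At an adjusted p under 0.05, 2143 loci (19.8% of those tested) passed edgeR's quasi-likelihood test. Of these, 978 (9.02% of tested loci) were higher with 9,10-dibutoxyanthracene and 1165 (10.7%) were lower. At least a 2-fold difference was fitted for 838 of the higher and 795 of the lower loci, and at least 4-fold for 344 and 210. On this scale large differences were thus more often towards 9,10-dibutoxyanthracene, while called loci as a whole were somewhat more often lower. That balance moved with the method: 45.6% of called loci were higher in the edgeR fit with TMM, 58.8% with limma on log2(FPKM + 1) (1239 higher, 868 lower), 59.6% with limma and no filter on low counts (1194 higher, 810 lower) and 18.4% with scaling to total counts alone (595 higher, 2643 lower). The median log2 difference over all tested loci was −0.06 with TMM and −0.52 with total counts, so all differences below are relative to the TMM scale. In bulk mycelium, fewer cells with a transcript and less of it per cell cannot be told apart.

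The 3 flasks with each compound did not overlap for 2048 of the 2143 called loci, compared with 5215 of all tested loci (48.1%). Without flask 3 of 4-phenoxybenzoic acid, 2483 loci were called, 1961 of them also called with it. The count depended more on the other flasks. It was 816 without flask 1 and 819 without flask 2 of 4-phenoxybenzoic acid, and 930 without flask 3 and 1046 without flask 2 of 9,10-dibutoxyanthracene.

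**Figure D1:**
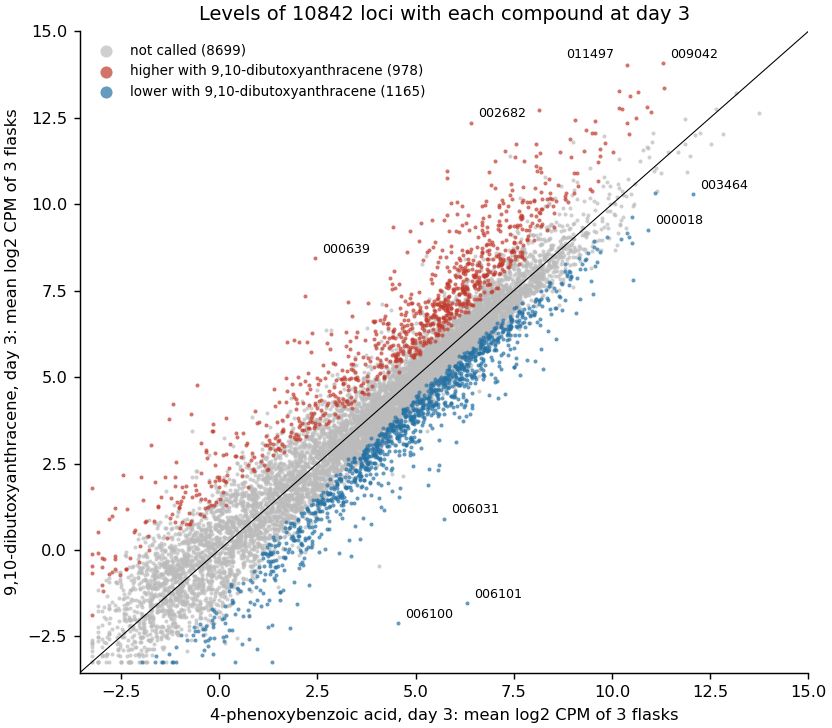
Mean log2 CPM of 3 flasks with 4-phenoxybenzoic acid (x axis) and with 9,10-dibutoxyanthracene (y axis) at day 3; each point is a locus, coloured by the edgeR call, the line marks equal levels and 9 loci described in the text carry their number. The 978 higher loci lie above the line and the 1165 lower loci below it, with Trisim1_006100 and Trisim1_006101 farthest below.

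At 3 loci with consecutive numbers transcripts were nearly absent with 9,10-dibutoxyanthracene and counted with 4-phenoxybenzoic acid. Trisim1_006101 (4518 bp) stood at 0.112, 0.257 and 0.406 CPM in the 9,10-dibutoxyanthracene flasks and at 21.8, 120.5 and 185 CPM in the 4-phenoxybenzoic acid flasks. Even the lowest 4-phenoxybenzoic acid flask thus exceeded every flask of the other compound many times over. By pooled counts it was 437-fold lower with 9,10-dibutoxyanthracene, a log2 difference of −8.72 ± 0.89 (SE; adjusted p = 2.82e-05, edgeR). Trisim1_006100 (384 bp) stood at 0.56, 0 and 0.0677 CPM against 2.37, 92.4 and 56.9 CPM, 236-fold lower (−7.86 ± 1.11; adjusted p = 0.000501). Trisim1_006099 (462 bp) had 0 counts in all flasks with 9,10-dibutoxyanthracene and 0.0816, 11.8 and 7.27 CPM with 4-phenoxybenzoic acid. With 3 counts in the whole group as the floor, it was at least 109-fold lower (adjusted p = 0.00311, edgeR). Flask 1 of 4-phenoxybenzoic acid was the low flask at all 3 loci.

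The references place this difference. In the day 3 control Trisim1_006101 stood at 0.953, 3.72 and 2.42 CPM, so 9,10-dibutoxyanthracene lay below the control (−3.19 ± 0.84; adjusted p = 0.0146, edgeR) and 4-phenoxybenzoic acid above it (5.53 ± 0.72; adjusted p = 0.00174). Trisim1_006100 was at 0.13, 0.783 and 0.138 CPM in the control, near its level with 9,10-dibutoxyanthracene (−0.75 ± 1.33; adjusted p = 0.734). With phenetole the 3 loci reached means of 26.8 ± 11.8, 196 ± 49.3 and 449.9 ± 261 CPM (SD, n = 3) in the order of their numbers. The separation ended at the next number: Trisim1_006102 (1707 bp) stood at 54.1, 50 and 69.4 CPM with 9,10-dibutoxyanthracene and at 11.1, 15.7 and 30.8 CPM with 4-phenoxybenzoic acid. It was therefore higher, not lower, with the former, with a log2 difference of 1.59 ± 0.56 (adjusted p = 0.049, edgeR). On the other side, Trisim1_006098 (2976 bp) differed by −1.09 ± 0.47 and did not pass (adjusted p = 0.106). Gene numbers give the order in the list, and whether these loci lie next to each other in the genome was not examined.

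**Figure D2:**
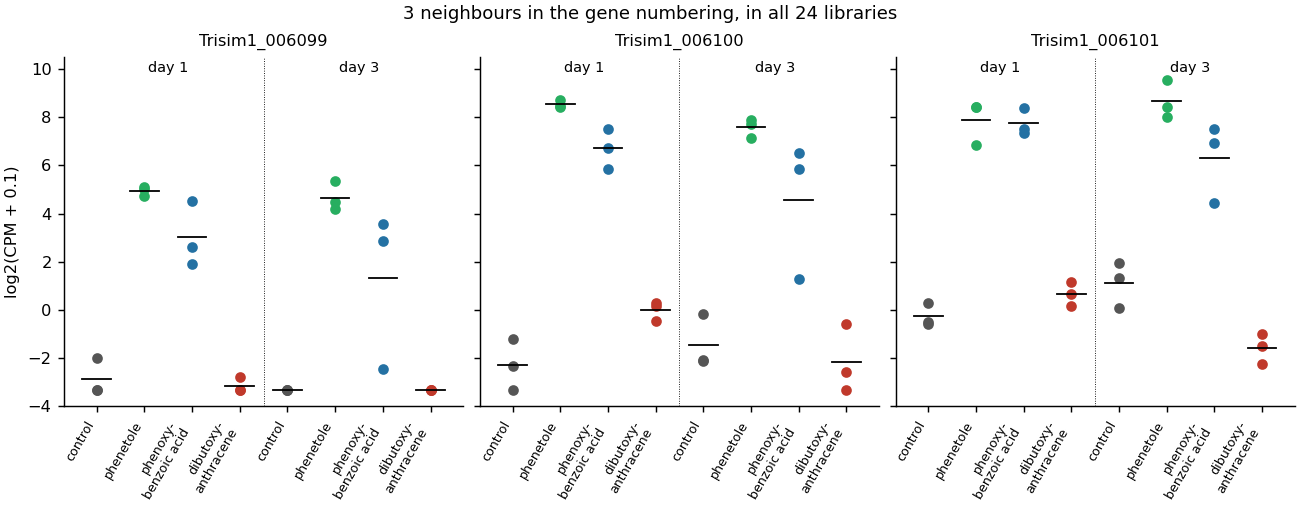
log2(CPM + 0.1) of Trisim1_006099, Trisim1_006100 and Trisim1_006101 in all 24 libraries; points are flasks, bars are means of 3, and the dotted line divides day 1 from day 3. At each day the 9,10-dibutoxyanthracene and control flasks lie at the bottom, and the phenetole and 4-phenoxybenzoic acid flasks above them. A low 4-phenoxybenzoic acid flask at day 3 lies near the bottom group at Trisim1_006099 and Trisim1_006100, and above it at Trisim1_006101.

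Among the other 6 loci with the largest falls, 4 had 1 to 7 counts over the 3 flasks with 9,10-dibutoxyanthracene, while Trisim1_006031 and Trisim1_011591 had 100 and 84. Trisim1_004560 (1695 bp) stood at 0.056, 0.0513 and 0 CPM with 9,10-dibutoxyanthracene, which is 2 counts in all, and at 2.28, 3.43 and 0.767 CPM with 4-phenoxybenzoic acid. The ratio of 55.6-fold had a 95% counting interval of 15.1 to 463, and the log2 difference was −5.6 ± 0.74 (adjusted p = 0.000435, edgeR). The control flasks at 1.3, 1.08 and 1.17 CPM sided with 4-phenoxybenzoic acid. Trisim1_006031 (1021 bp) stood at 2.91, 0.873 and 2.1 CPM against 176, 116 and 7.11 CPM, 51.6-fold lower (adjusted p = 0.0052). Its control flasks, at 11.6, 9.89 and 36.3 CPM, lay within the range of 4-phenoxybenzoic acid only through flask 3 of that compound. They were above every 9,10-dibutoxyanthracene flask. Neither 9,10-dibutoxyanthracene nor 4-phenoxybenzoic acid passed against the control there (adjusted p = 0.0554 and 0.451, edgeR). Trisim1_010043 (2792 bp), Trisim1_011627 (2792 bp) and a locus of 1106 bp outside the numbered models were the other low ones, with means of 0.667 to 3.44 CPM with 4-phenoxybenzoic acid. Their adjusted p-values lay between 0.00351 and 0.0125. In limma on log2(FPKM + 1), which damps low values, none of these last 3 passed, with adjusted p-values of 0.0883 to 0.0993. Trisim1_011627 was also lost without flask 2 of 9,10-dibutoxyanthracene or flask 1 of 4-phenoxybenzoic acid (adjusted p = 0.0612 and 0.0704, edgeR). Trisim1_011591 (978 bp) rested on a single library: it stood at 2.41, 4.41 and 275 CPM with 4-phenoxybenzoic acid and at 1.68, 1.69 and 1.42 CPM with 9,10-dibutoxyanthracene (−5.87 ± 1.18; adjusted p = 0.00303, edgeR). Without flask 3 of 4-phenoxybenzoic acid the difference was −1.09 and did not pass (adjusted p = 0.12, edgeR), and limma on log2(FPKM + 1) did not call the locus either (adjusted p = 0.0535).

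Of the loci with the largest rises, Trisim1_002682 (2809 bp) combined a high level with a wide gap. It stood at 4491, 4147 and 7768 CPM with 9,10-dibutoxyanthracene and at 65, 46.6 and 201 CPM with 4-phenoxybenzoic acid. The 9,10-dibutoxyanthracene flasks lay above every other day 3 library of the reference groups, since the control had 173, 615 and 1772 CPM and phenetole 127, 57.7 and 173 CPM. Such levels were also reached at day 1, with 4648, 10177 and 8010 CPM in the phenetole flasks. The day 1 control flasks had 124, 766 and 4764 CPM. The ratio between the compounds was 50.2-fold (5.71 ± 1.12; adjusted p = 0.00249, edgeR). Its predecessor in the numbering, Trisim1_002681 (94 bp), had 32 counts with 9,10-dibutoxyanthracene and 0 with 4-phenoxybenzoic acid, at least 14.9-fold higher (adjusted p = 0.0255). Trisim1_000639 (2177 bp) stood at 84.7, 799 and 604 CPM against 5.71, 4.58 and 5.65 CPM, 93.6-fold higher (6.54 ± 1.25; adjusted p = 0.00231). The spread here lay with 9,10-dibutoxyanthracene, whose flask 1 was low, while the 4-phenoxybenzoic acid flasks were nearly alike.

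The remaining loci of the 8 largest rises were low or uneven between flasks. Trisim1_005936 (2164 bp) and a locus of 883 bp outside the numbered models had 194 and 43 counts with 9,10-dibutoxyanthracene and 0 with 4-phenoxybenzoic acid, so they were at least 90.1-fold and 20-fold higher (adjusted p = 0.0146 and 0.0123, edgeR). Trisim1_004124 (1460 bp) had 72 counts against 1, 100.3-fold higher with counting error spanning 17.4 to 4017 (adjusted p = 0.0149). These 3 calls and that of Trisim1_002681 were lost without flask 1 or without flask 2 of 4-phenoxybenzoic acid (adjusted p = 0.0502 to 0.0862, edgeR). That of Trisim1_005936 was also lost in DESeq2 (adjusted p = 0.0786) and with all flasks numbered 3 removed (0.0505, edgeR). Trisim1_002681 was also lost without flask 2 or flask 3 of 9,10-dibutoxyanthracene (adjusted p = 0.0574 and 0.0647), and Trisim1_004124 without its flask 3 (0.0535). Trisim1_002986 (1616 bp) stood at 6.44, 149 and 21.2 CPM against 1.59, 0 and 1.66 CPM (5.75 ± 1.42; adjusted p = 0.0093), and Trisim1_010628 (405 bp) at 0.784, 11.5 and 1.08 CPM against 0.0408, 0 and 0.161 CPM (5.91 ± 1.52; adjusted p = 0.0119). At both of these, flask 2 of 9,10-dibutoxyanthracene was far above its group mates. Without it the differences were 3.65 and 3.64, and neither passed (adjusted p = 0.0773 and 0.122, edgeR). Trisim1_010628 was also lost without flask 1 or flask 2 of 4-phenoxybenzoic acid (adjusted p = 0.0607 and 0.0613).

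At the loci with the most counts, differences were smaller in ratio. Trisim1_011497 (1731 bp) stood at 15136, 13426 and 22845 CPM with 9,10-dibutoxyanthracene and at 968, 956 and 2571 CPM with 4-phenoxybenzoic acid, 11-fold higher (3.52 ± 0.69; adjusted p = 0.00249, edgeR). Trisim1_009042 (4009 bp) stood at 15699, 14096 and 23362 CPM against 1802, 2171 and 4022 CPM, 6.45-fold higher (2.73 ± 0.61; adjusted p = 0.00535). In both, the control flasks fell between the compounds, at 3766 to 9769 and 5547 to 11646 CPM, and flask 3 was the highest flask of each compound. Trisim1_012061 (1017 bp) and Trisim1_002564 (270 bp) were 3.97-fold and 5.59-fold higher (adjusted p = 0.0126 and 0.0281). The former call was lost without flask 3 of 9,10-dibutoxyanthracene or flask 2 of 4-phenoxybenzoic acid (adjusted p = 0.0565 and 0.0701, edgeR). The latter was lost without flask 2 or 3 of the first compound and without flask 1 or 2 of the second, and in limma with no filter on low counts (0.0503 to 0.127). Together these 4 loci took 4.99%, 4.23% and 5.95% of all counts in the 9,10-dibutoxyanthracene flasks and 0.873%, 0.891% and 1.5% in the 4-phenoxybenzoic acid flasks.

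The most counted falling loci were described in the same way. Trisim1_003464 (1453 bp) stood at 1539.6, 969.9 and 1316 CPM with 9,10-dibutoxyanthracene and at 5581, 5652 and 2482 CPM with 4-phenoxybenzoic acid, 3.6-fold lower (−1.84 ± 0.39; adjusted p = 0.00389, edgeR). Its control flasks, at 4420.5, 5367 and 4554 CPM, lay within the range of 4-phenoxybenzoic acid. Trisim1_000018 (3850 bp) stood at 762, 583 and 522 CPM against 2384, 2143 and 1376 CPM, 3.13-fold lower (−1.66 ± 0.3; adjusted p = 0.00156), with the control at 2476, 1715 and 2519 CPM. At both loci, then, the control flasks stood far above those with 9,10-dibutoxyanthracene. Trisim1_011802 (327 bp) and Trisim1_011836 (1932 bp) were 3.58-fold and 2.81-fold lower (adjusted p = 0.00928 and 0.033). The former call was lost without flask 2 of 9,10-dibutoxyanthracene or flask 1 of 4-phenoxybenzoic acid (adjusted p = 0.0531 and 0.0939, edgeR), and the latter without flask 2 or 3 of the first compound and flask 1 or 2 of the second, with all flasks numbered 3 removed and in limma with no filter (0.0543 to 0.183). The 4 loci took 0.229% to 0.352% of counts with 9,10-dibutoxyanthracene and 0.708% to 1.57% with 4-phenoxybenzoic acid.

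**Figure D3:**
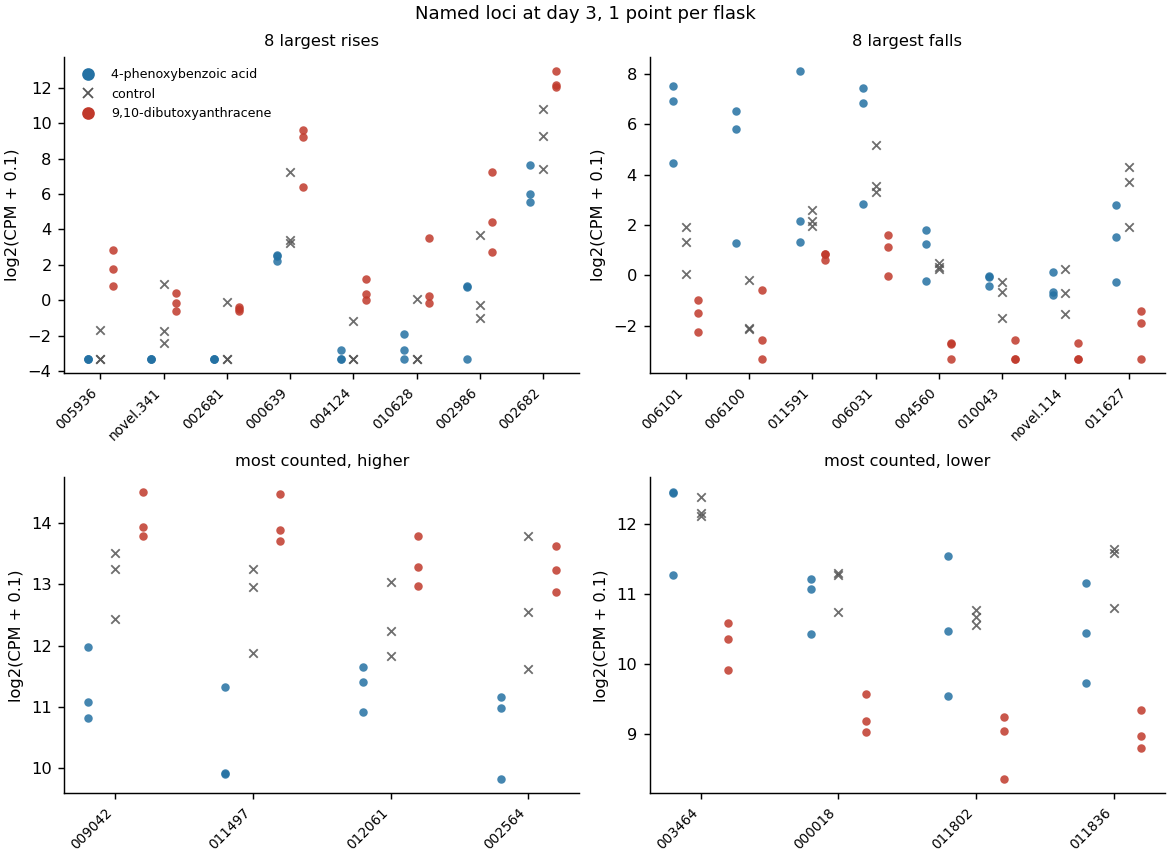
log2(CPM + 0.1) of the 24 loci named by size of difference or by level, at day 3; blue points are 4-phenoxybenzoic acid flasks, red points 9,10-dibutoxyanthracene flasks and grey crosses control flasks, 3 of each per locus. The panels show that the red and blue points do not overlap, which the naming rule required, and that at the most counted higher loci the control flasks lie between or overlap the compounds, while at Trisim1_003464 and Trisim1_000018 they lie with 4-phenoxybenzoic acid.

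The position of the references was also counted over all called loci. Of the 1165 loci lower with 9,10-dibutoxyanthracene, the day 3 control mean was nearer to 4-phenoxybenzoic acid at 1051 (90.2%), and of the 978 higher loci at 705 (72.1%). Over all tested loci the share was 66.2%. The 4 most counted higher loci were not among those 705: at Trisim1_011497, for example, 9,10-dibutoxyanthracene differed from the control by 1.26 ± 0.63 and 4-phenoxybenzoic acid by −2.26 ± 0.65 on the log2 scale, neither of which passed (adjusted p = 0.177 and 0.19, edgeR). For phenetole at day 3 the shares nearer to 4-phenoxybenzoic acid were 95.7%, 93.8% and 74.8%. Called loci enter these shares because the compounds differed there, so the shares are descriptive. In the tests against the day 3 control, which share its libraries, 1740 loci were called with 9,10-dibutoxyanthracene (568 higher, 1172 lower) and 8 with 4-phenoxybenzoic acid (4 higher, 4 lower), with 3433 and 1093 loci at an unadjusted p under 0.05.

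Those 8 loci, 2 of which are Trisim1_006100 and Trisim1_006101, and 6 others known from earlier results of these data were followed between the compounds. Of the 14, 6 were lower with 9,10-dibutoxyanthracene, 1 was higher and 7 did not pass. Trisim1_002131 (2906 bp) stood at 48.8, 36.5 and 48 CPM against 49.7, 155 and 149.7 CPM with 4-phenoxybenzoic acid (−1.41 ± 0.32; adjusted p = 0.0056, edgeR), so that flask 1 of each compound was nearly level. Trisim1_003741 (1107 bp), the higher locus, stood at 79.1, 48.7 and 78.3 CPM against 35.4, 26.5 and 33.1 CPM (1.12 ± 0.39; adjusted p = 0.048), and its call was lost in 12 of 16 alternatives. Of the lower loci, Trisim1_007510 (2654 bp; −2.55 ± 0.86; adjusted p = 0.0419) lost its call in 10 of 16. Trisim1_000288 (908 bp), the most counted locus of the study, was at 6948, 5449.8 and 6789 CPM against 20199.9, 15179 and 8516 CPM. Its groups did not overlap, yet it did not pass (−1.19 ± 0.45; adjusted p = 0.0667). It passed in 4 of 16 alternatives, among them DESeq2 (adjusted p = 0.00731), scaling to total counts (0.00303) and the fit without flask 3 of 4-phenoxybenzoic acid (0.0301). Of the other loci that did not pass, Trisim1_010012 (1.63; adjusted p = 0.0544) passed in 4 alternatives and Trisim1_001031 (1.69; adjusted p = 0.163) in 2.

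Day 1 gave a far smaller contrast between the same compounds. The edgeR test called 8 loci (0.0738%), 1 higher and 7 lower with 9,10-dibutoxyanthracene, with 933 at an unadjusted p under 0.05 and 62 called by DESeq2. The count was 60 without flask 1 of 9,10-dibutoxyanthracene, 1 without its flask 2 or its flask 3, and 5 without flask 2 or flask 3 of 4-phenoxybenzoic acid. Of the 7 lower loci, 5 were also lower at day 3, namely the 3 consecutive loci, Trisim1_007139 (1546 bp) and Trisim1_009246 (2459 bp). Trisim1_006101 stood at 1.02, 2.11 and 1.46 CPM with 9,10-dibutoxyanthracene and 163, 184 and 337 CPM with 4-phenoxybenzoic acid at that day (−7.21 ± 0.78; adjusted p = 7.89e-05, edgeR). Trisim1_007139 stood at 6.62, 4.99 and 3.74 CPM against 31.6, 26.7 and 33.2 CPM at day 1 (−2.57 ± 0.42; adjusted p = 0.0112) and at 4.54, 2.77 and 1.89 CPM against 9.58, 21.9 and 9.89 CPM at day 3 (−2.16 ± 0.42; adjusted p = 0.00247). The groups were apart at both days. The single locus higher at day 1, Trisim1_004508 (1272 bp), differed by 3.23 ± 0.61 then (adjusted p = 0.0397) and by 1.34 ± 0.57 at day 3 (adjusted p = 0.1), and the difference between the days did not pass (−1.9 ± 0.8; adjusted p = 0.218, edgeR).

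Over all 10842 loci the log2 differences of the days, which share no library, correlated at r = 0.23, given as a description over loci that are not independent. Loci higher at day 3 had a median log2 difference of 0.22 at day 1 and loci lower at day 3 one of −0.18, against 0.02 over all loci. Whether the difference between the compounds changed between the days was tested directly, and 163 loci (1.5%) passed, 82 with a difference further towards 9,10-dibutoxyanthracene at day 3 and 81 with the opposite. More loci were called with the flask number as a block, which the main test does not model. The same test called 658 loci with the compared groups alone, and DESeq2 called 608. This count moved by over 1.5 times for 10 of the 12 libraries when left out singly, from 433 without flask 3 of 4-phenoxybenzoic acid at day 3 to 0 without the same-numbered flask of day 1, where 1426 loci had an unadjusted p under 0.05 (edgeR). At Trisim1_002682 the 9,10-dibutoxyanthracene flasks held 77.6, 117 and 318 CPM at day 1 and the 4-phenoxybenzoic acid flasks 91.3, 161 and 297 CPM. The compounds were thus alike in range at day 1 and widely apart at day 3, and the difference between the days passed (5.82 ± 1.39; adjusted p = 0.0375, edgeR). For Trisim1_006101 the days differed by −1.51 ± 1.04, which did not pass (adjusted p = 0.486).

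**Figure D4:**
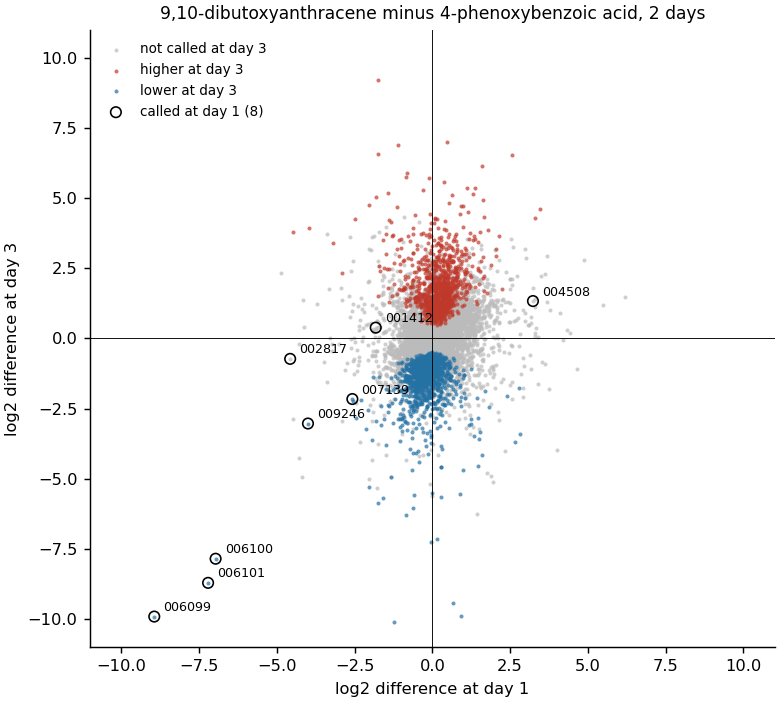
log2 difference between the compounds (9,10-dibutoxyanthracene minus 4-phenoxybenzoic acid) at day 1 (x axis) and day 3 (y axis) for each tested locus; colours give the day 3 call and circles the 8 loci called at day 1. Day 1 differences cluster around 0 for most loci called at day 3, and the 3 consecutive loci stand alone at the lower left.

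Further comparisons that share no library with the day 3 pair were set beside it. In the control, 2251 loci (20.8%) were called between day 3 and day 1, 1097 rising and 1154 falling. Of the 1165 loci lower with 9,10-dibutoxyanthracene, 280 fell with time in the control (24% of the lower loci and 24.3% of the control's falling loci), whereas falling loci were 10.6% of all tested. Of the 978 higher loci, 71 rose with time (7.26% and 6.47%), with rising loci at 10.1% of all tested. Shared loci were therefore found mainly among falls. With phenetole against the control at day 3, 371 loci (3.42%) were called, 165 higher and 206 lower. Of the 165, 71 were lower with 9,10-dibutoxyanthracene than with 4-phenoxybenzoic acid (43% of the former and 6.09% of the 1165) and 2 were higher. Of the 206, 44 were higher (21.4% and 4.5% of the 978) and 4 were lower. The directions were thus mostly opposite, and over all loci the log2 differences of these comparisons correlated at r = −0.44, against 0.15 for the control's time change; loci share base composition and libraries, and no test is attached.

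Called loci were spread unevenly over the gene set. In the upper tertile of mean level 14.8% of loci were higher and 12% lower, in the middle tertile 6.95% and 13.3%, and in the lower tertile 5.31% and 6.89%. The share higher thus rose with level, while the share lower was largest in the middle. Whether a locus is called depends in part on its counts, and how far these shares reflect that was not tested. By length, the shares lower were 7.97% in the shortest tertile (up to 1149 bp), 11.8% in the middle and 12.5% in the longest, and the shares higher were 8.44%, 8.94% and 9.68%. Of the 645 tested loci outside the numbered models, 78 were higher (12.1%) and 18 lower (2.79%), with a median log2 difference of 0.48, against 8.83%, 11.2% and −0.09 for numbered models. The sources used here do not state whether counting used the strand, so reads of such loci cannot be told from those of overlapping genes.

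Loci called in the same direction also stood next to each other in the numbering, which is given as a description. Of all tested loci 9.02% were higher and 10.7% lower, and how many runs these shares alone would give was not examined. There were 35 runs of at least 3 consecutive higher loci, holding 115 of the 900 called higher models (12.8%), and 35 runs of lower loci, holding 116 of 1147 (10.1%). The longest was Trisim1_002004 to Trisim1_002012, 9 lower loci with log2 differences from −2.86 to −0.88 and adjusted p-values up to 0.0469 (edgeR). Their summed level was 583, 462 and 406 CPM with 9,10-dibutoxyanthracene and 1172, 1210.5 and 775 CPM with 4-phenoxybenzoic acid. Within it Trisim1_002006 (1978 bp) fell furthest, at 3.42, 2.98 and 1.15 CPM against 10.1, 20.9 and 24.2 CPM (−2.86 ± 0.5; adjusted p = 0.0014). The flanking loci, Trisim1_002003 and Trisim1_002013, did not pass (adjusted p = 0.733 and 0.396). The longest run of higher loci was Trisim1_006501 to Trisim1_006505, whose sum was 946, 764 and 1076 CPM against 142, 153 and 282 CPM, with the control at 351, 446 and 939.97 CPM.

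Shorter runs differed in how evenly the flasks bore them. Trisim1_002266 to Trisim1_002269, 4 higher loci, summed to 435, 840.2 and 1161 CPM against 120.2, 124 and 155 CPM, and all 4 were apart between the groups. Trisim1_011235 to Trisim1_011238 had the largest differences of the named higher runs, 3.2 to 3.7, but their sum was 531, 7475 and 893 CPM against 154, 379 and 241 CPM. The groups did not overlap at only 1 of these 4 loci, because 9,10-dibutoxyanthracene flask 2 alone was high at the others. Among lower runs, Trisim1_012382 to Trisim1_012385 summed to 82.4, 60.4 and 67.8 CPM against 306, 513 and 120.3 CPM, and Trisim1_007019 to Trisim1_007022 to 24.6, 27.7 and 25.5 CPM against 54.9, 51.2 and 40.9 CPM. In both, every 9,10-dibutoxyanthracene sum lay below every 4-phenoxybenzoic acid sum.

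**Figure D5:**
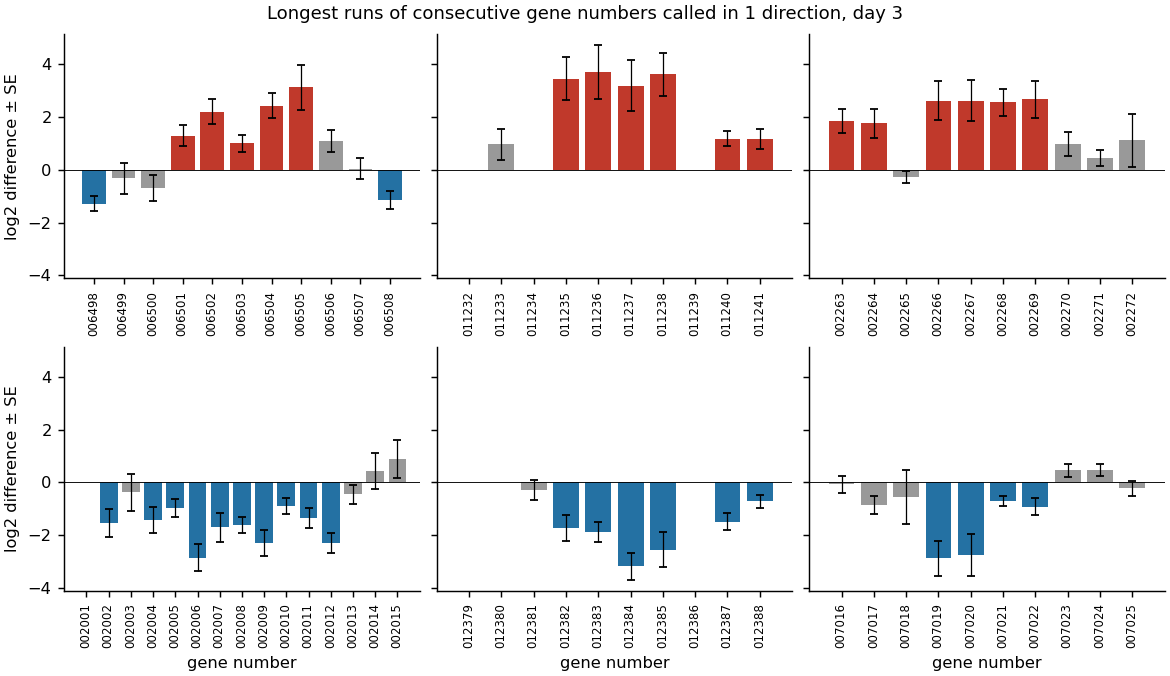
log2 difference at day 3 (9,10-dibutoxyanthracene minus 4-phenoxybenzoic acid, bars; whiskers are ± SE) along the gene numbers of the 3 longest runs in each direction, with 3 numbers on either side; red and blue bars passed the edgeR test, grey bars did not, and gaps are loci not tested. The run of 9 lower loci spans −2.86 to −0.88, and the run from Trisim1_011235 to Trisim1_011238 has differences of 3.2 to 3.7.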

How the data were processed

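RNA was sequenced as paired reads of 150 bp from mycelium. The authors deposited raw counts and FPKM values per gene for 24 libraries; counting was done with featureCounts 1.5.0-p3, per the submitters' processing notes, and aligner and genome build: not given in the sources used here. Lengths were recovered from the ratio of deposited counts to FPKM, on the scale that brought these ratios nearest to whole numbers. All 12728 were then whole within 0.01. Because the scale was chosen for whole values, this is no separate check of it. The analysis used edgeR 4.0.16 under R 4.3.3. filterByExpr (minimum count 10 over 8 groups) chose the loci, TMM gave the scaling, and 1 quasi-likelihood model of the 8 group means covered all 24 libraries. Contrasts were tested by the two-sided quasi-likelihood F test, with Benjamini-Hochberg adjustment over 10842 loci. Values are CPM on the TMM scale, and log2 differences carry SE such that their squared ratio equals F. Nothing in the labels states that each flask was its own culture, sampled a single time; p-values thus cover the spread among libraries, which may be technical.

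Among loci called at day 3 whose groups did not overlap and whose higher group had 10 counts or more in each library (940 higher, 1072 lower), the 8 with the largest log2 difference each way were named, and the 4 with the highest mean CPM each way among those differing at least 2-fold. Also named were 14 loci known from earlier results and, after their values were seen, the loci called at day 1 and neighbours in the numbering. The comparison, the lists and the rules were chosen with earlier results of these data known. Folds are ratios of pooled, scaled counts. Against 0 counts a floor of 3 counts over the group gives a lower bound, and against 1 to 3 counts a 95% exact interval is given; both cover counting error only. Alternatives were edgeR with RLE size factors, no filter, the flask number as a block or the compared groups alone, DESeq2 1.42.0, limma 3.58.1 on log2(FPKM + 1) or log2(FPKM + 0.1), and leaving out each library. The fit was also run on counts simulated from its own model, without effects shared by flask number. The outcome of that run is not given here and carries no weight in the results.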

Additional observations from a re-analysis of the deposited data

Results flagged for a closer look

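The edgeR test of whether the difference between the compounds differed between day 3 and day 1 was passed by 163 of 10842 loci. Among these were 7 of the 84 loci described, counting those called at day 1 and the members, flanks and neighbours of runs. Many of the 84 were chosen for a difference at day 3 or day 1. Both differences enter this test, so the share among the 84 cannot be set against that of all loci. At Trisim1_002682 the log2 difference was −0.1 ± 0.91 at day 1 and 5.71 ± 1.12 at day 3, a change of 5.82 (adjusted p = 0.0375). At Trisim1_004560 it was −0.6 ± 0.51 and −5.6 ± 0.74, a change of −5.01 (adjusted p = 0.0148); the 9,10-dibutoxyanthracene flasks held 1.11, 1.39 and 1.08 CPM at day 1 and 2 counts in all at day 3. At a locus of 1106 bp outside the numbered models it was 0.98 ± 0.72 and −4.71 ± 1.14, a change of −5.69 (adjusted p = 0.0375), with 98 counts with 9,10-dibutoxyanthracene at day 1 and 1 at day 3.

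Trisim1_011706 (615 bp) stood at 31.7, 25.1 and 19.1 CPM with 9,10-dibutoxyanthracene and 12.1, 19.1 and 22.2 CPM with 4-phenoxybenzoic acid at day 1, and at 10.3, 5.29 and 10.6 CPM against 37, 26.6 and 19.5 CPM at day 3, a change of −2.18 (adjusted p = 0.029, edgeR). The day 3 flasks did not overlap, while those of day 1 did. Trisim1_002817 (3703 bp) was called at day 1 and not at day 3: it stood at 11, 24 and 21.6 CPM against 516, 435 and 396 CPM at day 1 and at 42.5, 47.3 and 28.2 CPM against 42.5, 68.1 and 84.8 CPM at day 3, a change of 3.84 (adjusted p = 0.045). Trisim1_001412 (3490 bp), likewise called at day 1 alone, stood at 1.33, 1.57 and 1.79 CPM against 5.13, 5.44 and 6.04 CPM at day 1 and at 1.57, 1.13 and 0.744 CPM against 0.897, 0.814 and 0.929 CPM at day 3, a change of 2.21 (adjusted p = 0.0238). Trisim1_012384 (1545 bp), in a run of lower loci, stood at 40.3, 38.1 and 51.1 CPM against 65.5, 66.5 and 53.6 CPM at day 1 and at 11.2, 8.57 and 6.77 CPM against 59.3, 151 and 31 CPM at day 3, a change of −2.66 (adjusted p = 0.0467). No locus passed this test without flask 3 of 4-phenoxybenzoic acid at day 1, where 1426 loci had an unadjusted p under 0.05. No formal outlier test was applied, since the groups hold 3 flasks each.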

How the results depend on the processing

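Of the 36 loci named by rule or from earlier results, 29 were called at day 3, and 13 of these were called under every alternative run. Trisim1_008178, which did not pass (0.43 ± 0.93), ranged from −0.22 to 1.78 when single libraries were left out; it changed sign without flask 1 of 9,10-dibutoxyanthracene (−0.22) and without flask 3 of 4-phenoxybenzoic acid (−0.0046). The day 3 count of 2143 was 3238 with total counts and no TMM, a scaling added after seeing the data. Leaving out single libraries gave 816 to 2483 calls at day 3 and 1 to 60 at day 1, with 1 without either flask 2 or flask 3 of 9,10-dibutoxyanthracene, 60 without its flask 1, and 5 without either flask 2 or flask 3 of 4-phenoxybenzoic acid. It gave 0 to 433 for the difference between days and 1669 to 2348 for the control over time. For the difference between days the count was 27 and 50 without flasks 2 and 3 of 9,10-dibutoxyanthracene at day 3, 25, 22 and 433 without flasks 1, 2 and 3 of 4-phenoxybenzoic acid at day 3, 37 and 84 without flasks 2 and 3 of 9,10-dibutoxyanthracene at day 1, and 86, 88 and 0 without flasks 1, 2 and 3 of 4-phenoxybenzoic acid at day 1.

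The day 1 count of 8 was 5 with the compared groups alone, 62 with DESeq2, 15 with limma on log2(FPKM + 1), 14 with that and no filter, and 0 with all flasks numbered 3 removed (807 at an unadjusted p under 0.05, edgeR), an alternative added after seeing the data. The count of 163 for the difference between days was 611 with the replicate block, 658 with the compared groups alone, 608 with DESeq2, 420 with total counts and 66 with flasks 3 removed. The control count of 2251 was 1211 with the compared groups alone and 1462 with flasks 3 removed. With the flask number as a block, 2744 loci were called at day 3 (1280 higher, 1464 lower) and 10 at day 1. Deviations of same-numbered flasks correlated at −0.03, −0.07 and 0.04 between the day 3 groups, and 9,10-dibutoxyanthracene flask 1 correlated best with 4-phenoxybenzoic acid flask 2 (0.13), which gives no sign of pairing at day 3. Across the 4 groups of the difference between days, 8 of 18 same-number correlations were over 0.1 (−0.17 to 0.31), and 2 of 3 were at day 1 and in the control over time. Between the days, same-numbered flasks correlated at 0.165, 0.0023 and 0.103 with 9,10-dibutoxyanthracene. With 4-phenoxybenzoic acid they correlated at 0.199, 0.114 and 0.315, and in the control at 0.283, 0.0611 and 0.397. Between the days with 4-phenoxybenzoic acid, then, every same-number correlation was over 0.1. This did not hold for the full sets of the day 3 pair, the day 1 pair, the difference between days or the control over time. The block is kept as an alternative on that ground. For the difference between days some sharing by flask number remains possible, which the test without the block does not model. The cause of these changes was not tested. Depth limits the lowest loci, where 1 to 3 counts leave ratios uncertain.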

Other observations

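The 6 day 3 libraries are not alone in varying along the difference between the compounds. For each of the other 18 libraries, the deviation from its group mean was correlated over loci with the day 3 log2 difference, which none of these libraries entered directly. Flask 3 had a positive value in all 6 groups: 0.38 and 0.24 in the controls at days 1 and 3, 0.17 and 0.07 with phenetole, 0.17 with 9,10-dibutoxyanthracene at day 1 and 0.44 with 4-phenoxybenzoic acid at day 1. Flask 1 had a negative value in 5 of the 6 groups, the exception being phenetole at day 3 at 0.12. Within a group the deviations cancel at each locus, so the flask 1 values are not independent of those of flask 3. The sources used here do not say what flasks of the same number share. With all flasks numbered 3 removed, the day 3 comparison called 1861 loci, 1517 of them among the 2143.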
